A study of Mus musculus with 19 samples.

Results

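The reads described here are fragments of the 18S rRNA in mouse sperm. They were chosen as the reads that align to the annotated 18S transcript (CT010467.1, 1849 nt, chr17:39846353-39848201 of GRCm38, exonic over its whole length) on the strand that carries the rRNA, with at most 1 mismatch. This is 1 gene of the 6073 small RNA genes in the reference, and its reads made up 12.8% of all reads in the 19 libraries. They held 449566 distinct sequences, of which 1 could be placed at more than 1 position and 297 also matched another small RNA gene. All mice were wild-type C57BL/6J males, 8 weeks old at the start, and were gavaged daily for 4 weeks with corn oil (control) or with dicyclohexyl phthalate (DCHP, a plasticizer) at 10 mg/kg/day. Sperm was taken from the cauda epididymis and treated with a buffer that lyses somatic cells, and RNA of 15 to 50 nt was cut from a gel. RNA of each exposure went into traditional small RNA-seq and into PANDORA-seq, in which the demethylase AlkB removes base methylations that stop reverse transcriptase and T4 polynucleotide kinase (T4PNK) gives fragments ends that can be ligated. There were 4 PANDORA-seq control libraries and 5 in each of the other 3 groups.

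The 18S rRNA is the RNA of the small ribosomal subunit. RNA polymerase I transcribes it in the nucleolus as part of a long precursor, from which it is cut out and folded, and many of its ribose and base positions are modified. Mature sperm have lost most of their cytoplasm and translate little, and fragments of ribosomal RNA, called rsRNAs, are among the abundant small RNAs that they carry. RNases that cut single-stranded loops can leave a cyclic phosphate at the 3′ end and a hydroxyl at the 5′ end, which the adapters of a standard small RNA kit do not join.

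The fragments that carry the pattern are shown first, because the same few recur in the results. Positions count from 1 at the 5′ end of the 18S rRNA, and T stands for U. The annotated transcript lies on the strand opposite to the rRNA. Its bases, first base and last base are given here and below for the rRNA strand, which is its reverse complement. Capitals are the fragment, and the lower-case letters are the 5 bases of the annotated transcript on each side, on the plus strand of GRCm38. The first sequence was the most abundant and is printed as it was read, which differs from the annotated transcript by T1051G. The next 2 were the leading exact fragments of PANDORA-seq outside it, and the last 2 were the leading exact fragments of traditional RNA-seq.
18S 1034–1063 (chr17:39847386-39847415): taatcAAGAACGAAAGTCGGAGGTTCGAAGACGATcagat
18S 1540–1574 (chr17:39847892-39847926): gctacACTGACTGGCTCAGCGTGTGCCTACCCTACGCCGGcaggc
18S 685–727 (chr17:39847037-39847079): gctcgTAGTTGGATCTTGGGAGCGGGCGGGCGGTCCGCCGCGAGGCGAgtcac
18S 136–163 (chr17:39846488-39846515): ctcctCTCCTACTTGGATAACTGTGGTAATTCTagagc
18S 1–17 (chr17:39846353-39846369): TACCTGGTTGATCCTGCcagta

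The libraries held 21588335 to 56506344 reads, of which 4899517 to 12045233 were 18S reads in PANDORA-seq and 586542 to 2256030 in traditional RNA-seq. The counting error of the number of 18S reads in a library was at most 0.131% of that number. Identical libraries were not found: in all 36 pairs of libraries of a group the counts differed beyond sampling noise, with a chi-square per degree of freedom of at least 12.3. Marker miRNAs of germ cells and of other cell types were low in PANDORA-seq and higher in traditional RNA-seq. The epididymal epithelium list (Mir200a, Mir200b, Mir200c, Mir141 and Mir429) summed to 2.63 to 42.8 reads per 1000000 reads of the library (RPM) in PANDORA-seq and 553 to 4430 RPM in traditional RNA-seq. The male germ cell list (Mir34b, Mir34c and the Mir449 hairpins) summed to 0.925 to 6.51 RPM and 87.1 to 462 RPM, and the smooth muscle list to 2.60 to 112 RPM and 1367 to 6930 RPM. Blood cell hairpins summed to 0 to 0.359 RPM and 5.45 to 167 RPM, and Mir122 of liver to 3.74 to 129 RPM and 783 to 70134 RPM. Reads of 2 of 5 germ cell, 4 of 5 epididymal, 0 of 4 blood, 2 of 4 smooth muscle and 1 of 1 liver hairpins were found in every library. The part of other cells in the 18S reads was not tested.

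PANDORA-seq held far more 18S reads for the same number of miRNA reads than traditional RNA-seq did. The 18S share of all reads was 19.3, 27.5, 26.0 and 21.3% in the PANDORA-seq control libraries and 23.5, 20.8, 28.5, 21.8 and 18.3% in the DCHP libraries. In traditional RNA-seq it was 4.15, 3.13, 4.55, 3.28 and 2.43% in control and 2.72, 3.15, 3.88, 2.77 and 2.43% in DCHP. The 2 methods did not overlap, while the exposures did in both. Per miRNA read, there were 19.1 ± 5.30 18S reads in PANDORA-seq control (SD, n = 4) and 0.550 ± 0.251 in traditional control (n = 5), a 34.8-fold difference. In the DCHP groups they were 19.6 ± 2.79 and 0.460 ± 0.166 (n = 5 each), a 42.7-fold difference. Both passed a two-sided exact permutation test over the libraries (p = 0.00794, the smallest that these group sizes allow, adjusted p = 0.0159 over 4 comparisons). With same-numbered libraries as pairs, the difference was 19.1 in DCHP and the exact permutation p was 0.0625, which 5 pairs cannot go below, with an adjusted p of 0.25. In the control groups, dropping any 1 of the 5 traditional libraries left an adjusted p of 0.0571 because fewer arrangements remain.

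The size of this difference depended on what it was divided by. As a share of all reads of the library (RPM), 18S was 6.71-fold higher in the control and 7.54-fold higher in the DCHP libraries of PANDORA-seq. The miRNA total was 1.04 to 1.37% of all reads in PANDORA-seq and 4.54 to 16.9% in traditional RNA-seq. Only 2.28 to 10.4% of it in PANDORA-seq came from hairpins whose reads were mostly 20 to 24 nt long, against 89.1 to 98.1% in traditional RNA-seq. Divided by those hairpins alone, the folds were 864 and 1023.

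**Figure D1:**
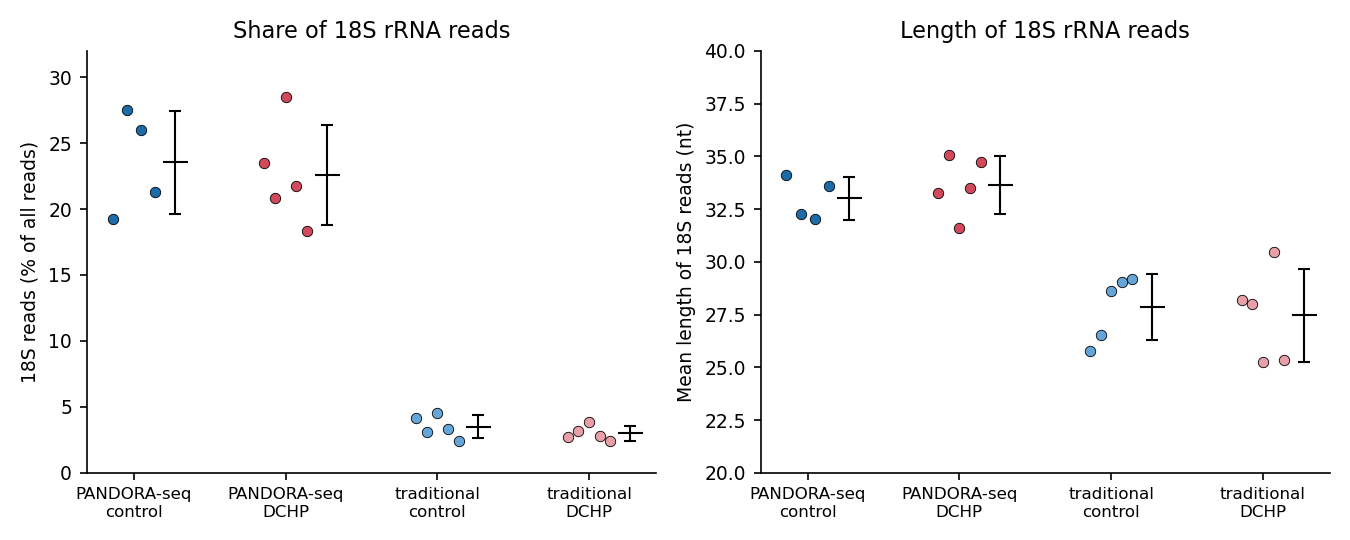
18S reads as a percentage of all reads of the library (left) and mean length of the 18S fragments in nt (right), by method and exposure. Points are libraries, and bars are the group mean ± SD. The 9 PANDORA-seq libraries lie at 18.3 to 28.5% and the 10 traditional libraries at 2.43 to 4.55%, with shorter fragments in the traditional libraries.

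No difference in the amount of 18S fragments between DCHP and control passed the test in either method. The difference between DCHP and control means was 0.473 18S reads per miRNA read in PANDORA-seq (exact permutation p = 0.873, adjusted p = 0.873) and −0.0905 in traditional RNA-seq (exact permutation p = 0.508, adjusted p = 0.677). In PANDORA-seq the sign was not stable. It turned without control replicate 1 (−1.20), control replicate 4 (−0.516) or DCHP replicate 3 (−0.539), and it also turned in RPM. On the log2 scale the exposure effects were 0.06 in PANDORA-seq against −0.18 in traditional RNA-seq, and their difference of 0.25 gave a p of 0.626 when exposure labels were permuted within each method.

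The single sequence 1034–1063, a 30-nt fragment from the middle of the molecule, was the most abundant 18S sequence in all 9 PANDORA-seq libraries and in 8 of the 10 traditional ones, the exceptions being control replicate 2 and DCHP replicate 5. It was chosen for description with its values known. It took 7.60, 33.5, 32.4 and 17.2% of the 18S reads in the PANDORA-seq control libraries and 24.1, 9.43, 36.8, 16.6 and 8.69% in the DCHP libraries. In traditional RNA-seq it took 5.59, 2.79, 10.6, 14.1 and 8.41% in control and 5.93, 7.74, 5.51, 2.36 and 1.24% in DCHP. Its share thus varied more than 4-fold between libraries of the same PANDORA-seq group, and all 4 groups overlapped with at least 1 other.

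A further part of the 18S reads were close variants of this fragment. Reads that share at least 1 base with it, the fragment itself included, were counted together. They made up 35.02 and 31.9% of the 18S reads in PANDORA-seq control and DCHP, and 26.6 and 20.8% in traditional RNA-seq. In PANDORA-seq the next variants were 1030–1067 (1.74%), 1030–1063 (1.68%), 1035–1063 (1.31%), 1034–1067 (1.28%) and 1029–1063 (1.22%), which kept one end or moved both by a few bases. Traditional RNA-seq held some of these and, in addition, fragments that stop 2 bases earlier. Of these, 1035–1061 took 0.895 and 0.389% in traditional control and DCHP against 0.00288 and 0.00378% in PANDORA-seq, and 1034–1061 took 0.696 and 0.571% against 0.0607 and 0.0520%.

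DCHP gave no call for the leading fragment. Per miRNA read, its log2 fold change was −0.27 in PANDORA-seq (adjusted p = 0.989) and −1.05 in traditional RNA-seq (adjusted p = 1), by edgeR's quasi-likelihood test with Benjamini-Hochberg adjustment over the 20000 most abundant sequences of each comparison.

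Apart from that sequence, the methods led with different exact fragments. The values of these are descriptions, because abundance within a method chose them. In PANDORA-seq 1540–1574 came first, with 4.17, 5.43, 2.84 and 2.89% of the 18S reads in control and 3.57, 3.97, 2.69, 2.26 and 1.81% in DCHP, against 0.124 to 1.69% in the 10 traditional libraries. The next were 685–727 (43 nt, mean 1.18% in PANDORA-seq), 1516–1556 (41 nt, 1.17%), 1347–1382 (36 nt, 0.967%), 1384–1412 (29 nt, 0.907%) and 1188–1225 (38 nt, 0.897%). Fragments 1347–1382 and 1384–1412 leave 1 base between them, and 1516–1556 overlaps 1540–1574 by 17 bases. In traditional RNA-seq the first was 136–163, at 0.668, 0.941, 0.683, 0.748 and 1.88% in control and 1.01, 0.668, 1.02, 1.06 and 0.683% in DCHP. The 9 PANDORA-seq libraries held it at 0.00163 to 0.00720%. The second was 1–17, the 5′ tip of the mature 18S rRNA, at 1.01, 0.753, 0.387, 0.347 and 0.729% in control and 0.874, 1.07, 1.93, 1.30 and 0.800% in DCHP. PANDORA-seq held it at 0.0158 to 0.0730%, a share below that of every traditional library. Per miRNA read the direction was the opposite for 1–17, with means of 0.00915 and 0.0115 in PANDORA-seq control and DCHP against 0.00353 and 0.00576. It was not the opposite for 136–163, with 0.000501 and 0.000908 against 0.00497 and 0.00412. In RPM, 1–17 was lower in PANDORA-seq, as in the share, with means of 110 and 133 against 224 and 376. The others in traditional RNA-seq were 900–916 (17 nt, mean 0.651%), 1540–1574 (0.605%), 546–562 (17 nt, 0.416%) and 1385–1425 (41 nt, 0.390%). The mean of 900–916 rests on DCHP replicate 5 alone, at 5.49%, since the other 9 traditional libraries lay at 0.0189 to 0.475%.

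**Figure D2:**
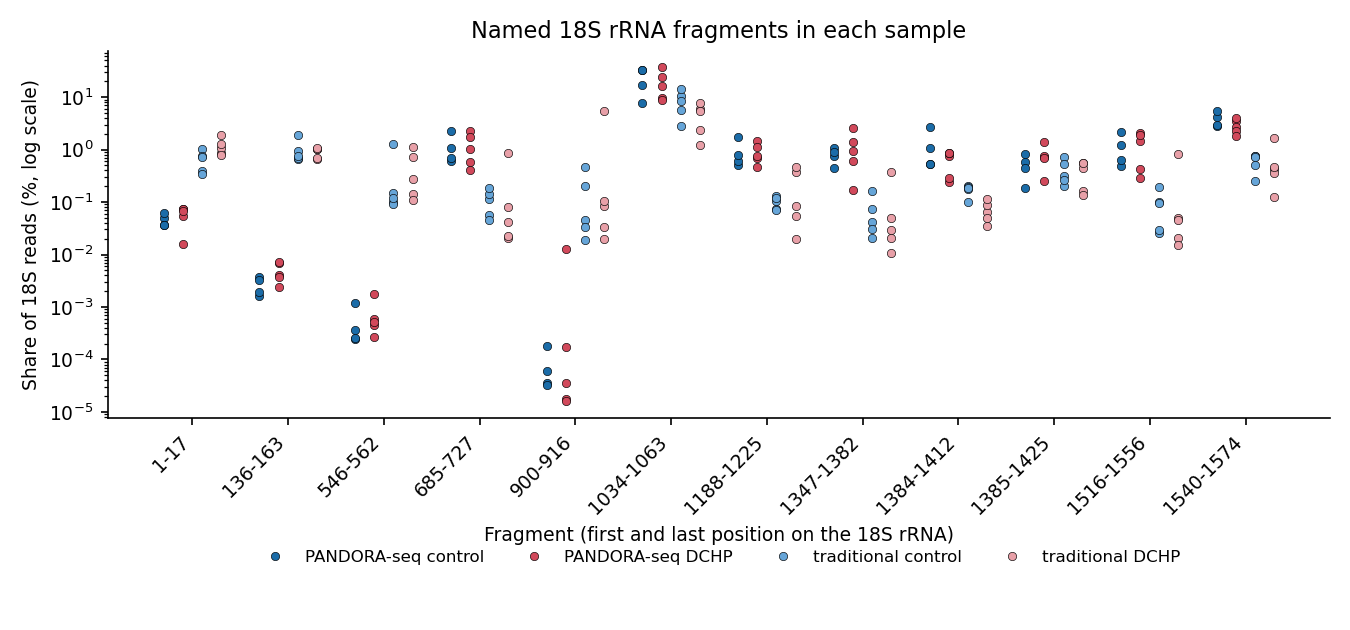
Share of the 18S reads (%, log axis) taken by each named fragment in every library, by method and exposure, with fragments named by their first and last position. The 30-nt fragment 1034–1063 lies highest in PANDORA-seq at 7.60 to 36.8%, and 136–163 and 1–17 lie higher in every traditional library than in any PANDORA-seq library.

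The libraries of a group did not hold these fragments in fixed proportion. In PANDORA-seq control, replicates 2 and 3 were highest in 1034–1063 and held 0.604 and 0.691% of 685–727, whereas replicate 1, lowest in 1034–1063, held 2.24%. The DCHP libraries did likewise, with 0.409% of 685–727 in replicate 3 (36.8% of 1034–1063) and 2.30 and 1.72% in replicates 2 and 5 (9.43 and 8.69%). Fragments 1516–1556 and 1347–1382 were likewise lowest in control replicate 2 (0.484 and 0.450%) and highest in control replicate 1 (2.14 and 1.08%). In DCHP both were lowest in replicate 3 (0.293 and 0.168%). There 1516–1556 was highest in replicate 2 (2.08%) and 1347–1382 in replicate 5 (2.53%). Fragments 1540–1574, 1188–1225 and 1384–1412 did not follow this order. Control replicate 2 was also highest of its group in 1540–1574 (5.43%) and 1188–1225 (1.74%), and replicate 3 in 1384–1412 (2.75%). In traditional DCHP, replicate 4 stood apart, with 0.866% of 685–727, 0.815% of 1516–1556 and 0.376% of 1347–1382, against 0.0207 to 0.0799%, 0.0149 to 0.0505% and 0.0108 to 0.0508% in the other 4 libraries.

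The coverage of the molecule was uneven in both methods, with the highest bin of each at positions 1001–1050 and a different order of the others. The 1849 nt were cut into 37 bins of 50 nt, and each bin was given its share of all 18S bases read. Positions 1001–1050 held 19.6 and 17.8% of the bases in PANDORA-seq control and DCHP and 16.7 and 13.4% in traditional RNA-seq, and positions 1051–1100 held 14.5, 13.1, 12.1 and 9.72%. These 2 bins, which the leading fragment straddles, were the highest or among the highest in both methods and gave no call between them. Positions 1351–1400 held 9.07 and 10.5% in PANDORA-seq and 12.5 and 10.6% in traditional RNA-seq, and positions 1401–1450 held 4.80, 4.99, 6.90 and 5.84%, again with no call.

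Of the 37 bins, 12 (32.4%) differed between methods in control, 5 higher and 7 lower in PANDORA-seq, and 13 (35.1%) in DCHP, 2 higher and 11 lower (exact permutation tests, each called at an adjusted p of 0.0470 over 148 tests). Of these, 8 were called in both, all in the same direction. Positions 1501–1550 held 22.8, 14.1, 8.92 and 13.6% of the bases in PANDORA-seq control and 10.4, 19.1, 8.71, 17.1 and 15.5% in DCHP. In traditional RNA-seq they held 6.06, 3.45, 5.32, 4.19 and 4.68% in control and 3.14, 5.95, 3.597, 8.04 and 2.20% in DCHP. Every PANDORA-seq library was above every traditional one, by 3.14-fold of the means in control and 3.09-fold in DCHP. Positions 1–200 at the 5′ end went the other way by their means. Positions 151–200 held 0.597, 0.614, 0.757 and 0.956% in PANDORA-seq control and 1.22, 0.712, 0.676, 1.005 and 0.931% in DCHP. The traditional libraries held 4.89, 6.99, 4.30, 4.53 and 9.04% in control and 8.37, 4.86, 6.62, 5.95 and 6.29% in DCHP. Positions 101–150 held 2.29 and 3.37% on average in PANDORA-seq and 7.43 and 7.002% in traditional RNA-seq, called in control but not in DCHP (adjusted p = 0.101), and positions 901–950 held 2.20 and 2.52% against 3.83 and 5.405%, called in both. Traditional DCHP replicate 5 held 10.5% there and the other 4 libraries of its group 3.77 to 4.65%, and without it the DCHP difference went from −2.88 to −1.62 points. The difference between the control and the DCHP method effect was not tested.

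These bin calls stand at the limit of the design. A call needed 24 of the 148 tests at the smallest possible p, so that with any 1 control library left out, any 1 PANDORA-seq DCHP library left out, the bins shifted by 25 nt or the libraries paired by number, 0 bins were called between methods in the comparison concerned, although at an unadjusted p under 0.05 there were 20 bins in control and 18 in DCHP with the bins as reported and 23 and 21 with shifted bins. With 1 traditional DCHP library left out, 12 to 14 bins were called in DCHP, but positions 1501–1550 were not among them (adjusted p 0.0587 to 0.0758 over all 10 libraries left out in turn, exact permutation tests). No bin was called between DCHP and control in either method (0% of the bins), with 0 bins in PANDORA-seq against 2 in traditional RNA-seq at an unadjusted p under 0.05. Across the 37 bins, GC content and the log2 ratio of the methods had r = 0.161 and rho = 0.0435, a description over bins that are not independent.

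**Figure D3:**
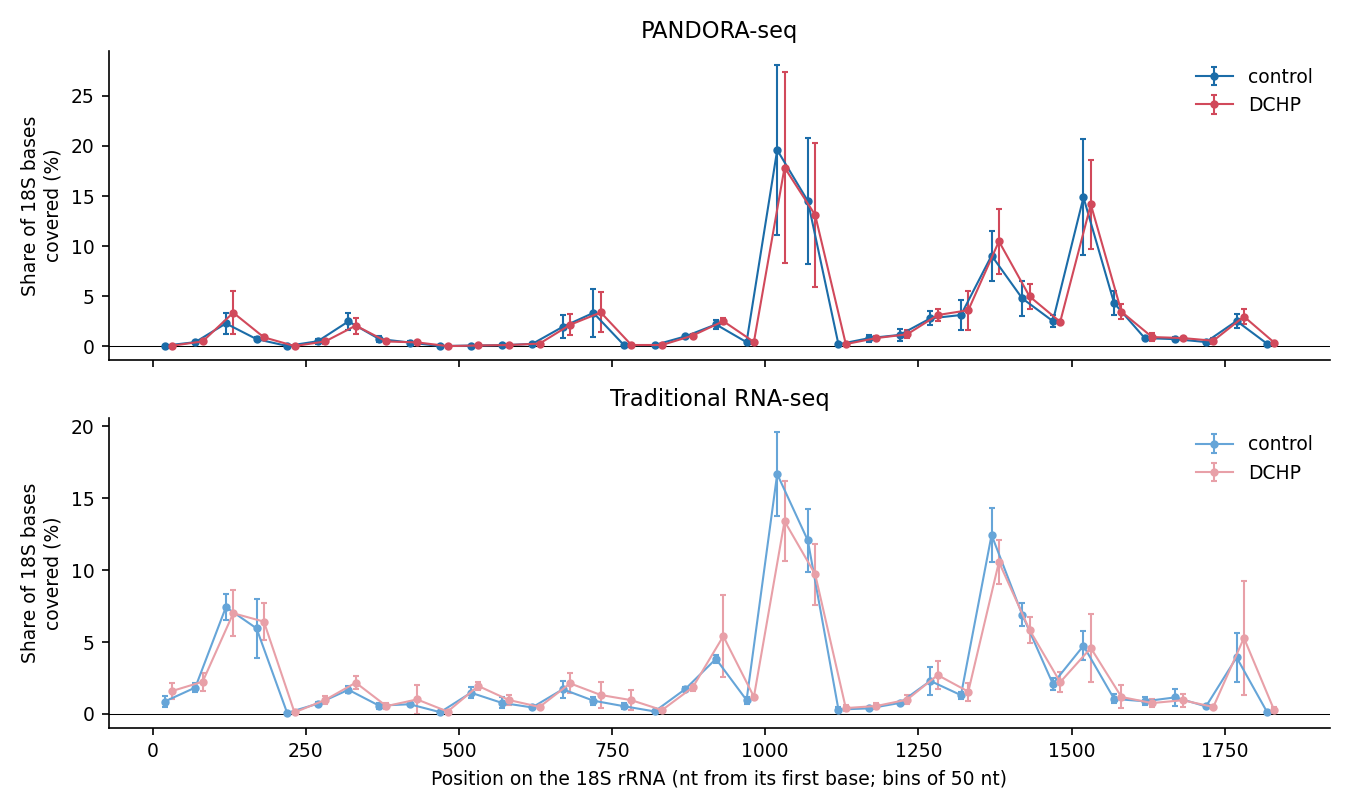
Share of all 18S bases read (%) in each 50-nt bin along the 18S rRNA, from its 5′ to its 3′ end, for PANDORA-seq and traditional RNA-seq, with lines and bars as group mean ± SD for control and DCHP. Both methods peak around positions 1001–1100; the peak at 1501–1550 is about 14 to 15% in PANDORA-seq and under 5% in traditional RNA-seq, and positions 151–200 reach about 6% only in traditional RNA-seq.

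The profiles of libraries of the same group had a median r across bins of 0.870 in PANDORA-seq (0.555 to 0.968) and 0.948 in traditional RNA-seq (0.734 to 0.991). Pairs of different exposure within a method had 0.893 (0.493 to 0.989) and 0.957 (0.723 to 0.981), and pairs from different methods had a median r of 0.781 (0.293 to 0.939). These are descriptions over 37 bins that share a molecule.

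A few start and end positions gave most of the 18S fragments in PANDORA-seq. On average 9.75 start positions in control and 11.8 in DCHP held 50% of the reads, against 26.4 and 36.8 in traditional RNA-seq, and 7.75 and 9.8 end positions against 30.2 and 41. The leading start, 1034, took 22.9% of the PANDORA-seq reads and 9.69% of the traditional reads, and 91.3 and 66.6% of those reads ended at 1063. The leading end, 1063, took 28.1 and 10.1%. The other leading starts in PANDORA-seq were 1516 (4.77% against 0.943% in traditional RNA-seq), 1540 (3.75% against 0.906%), 1030 (3.64% against 2.62%) and 1384 (3.10% against 1.29%). Reads from 1540 had nearly 1 end, since 96.8% of them stopped at 1574, whereas 27.4% of the reads from 1516 stopped at their most common end, 1556. The other leading ends were 1574, 1067, 727 and 1550, with 4.01, 3.56, 2.96 and 2.88%.

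In traditional RNA-seq the starts after 1034 were 136 (3.26% against 0.157% in PANDORA-seq), 1035 (2.88% against 1.43%), 1385 (2.80% against 2.15%) and 1030. Its ends after 1063 were 1067 (3.25%), 1061 (2.88% against 0.103%), 163 (2.11% against 0.0176%) and 918 (1.83% against 0.662%). The ends at 1061 and 163 and the start at 136 thus took a small share of the PANDORA-seq reads, while the ends at 1063 and 1067, near 1061, were among its leading ends.

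The 2 natural ends of the molecule differed as fragment ends. Reads that start at the first base of the 18S rRNA took 0.0880, 0.130, 0.0542 and 0.0604% of the 18S reads in PANDORA-seq control and 0.108, 0.0768, 0.108, 0.106 and 0.0340% in DCHP. In traditional RNA-seq they took 1.43, 1.38, 0.681, 0.575 and 1.28% in control and 1.39, 1.80, 2.88, 2.04 and 1.63% in DCHP, above every PANDORA-seq library. The 3′ end of the 18S rRNA carries, as background, a pair of neighbouring dimethylated adenosines, a modification that blocks reverse transcription. Reads that end at the last base numbered 0 in each of the 9 PANDORA-seq libraries, which allows up to 2.49e-05 to 6.12e-05% of their 18S reads, and 0 to 8 in the traditional libraries. These limits and intervals cover counting error only. The 18S reads leave out those that run past the last base. Such reads numbered 110 to 469 per library in PANDORA-seq and 26 to 80 in traditional RNA-seq. Their group medians per 18S read were lower in PANDORA-seq, with overlap between libraries of the methods. Reads that end anywhere in the last 40 bases took 0.0397 to 0.145% in PANDORA-seq and 0.0774 to 0.310% in traditional RNA-seq. The last position at which at least 100 reads ended was 1812 or 1844 in PANDORA-seq and 1848, 1 base before the annotated end, in every traditional library.

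Fragments rarely began with C in PANDORA-seq. The first base was C in 2.42, 1.502, 1.48 and 2.20% of the 18S reads in PANDORA-seq control and in 2.33, 2.34, 1.71, 2.21 and 2.78% in DCHP, and in 18.97, 20.1, 13.6, 12.7 and 20.5% and 19.02, 18.5, 21.4, 18.8 and 22.5% in traditional RNA-seq. The methods did not overlap (exact permutation p = 0.00794 in both comparisons, adjusted p = 0.127 over 64 tests, not called). The 18S rRNA itself is 26.2% C, 29.2% G, 22.7% A and 21.9% T. In the other reads of the same libraries, C was first in 18.4 and 18.8% in PANDORA-seq and 20.2 and 20.8% in traditional RNA-seq on average. A or T came first in 85.0 to 92.4% of the PANDORA-seq 18S reads and in 62.9 to 76.2% of the traditional ones. The last base was C in 15.6 and 17.0% against 26.4 and 26.7% (exact permutation p = 0.00794, adjusted p = 0.127). In all, 0 of the 64 end-base shares were called, and 12 had an unadjusted p under 0.05, all between methods.

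The leading fragment starts with A after C and ends in T before C, and its ends made up much of the reads with these pairs in PANDORA-seq. On average, position 1034 alone gave 24.7% of the starts and position 1063 gave 29.5% of the ends in PANDORA-seq control (lowest libraries 9.15 and 10.9%). The pair CA spanned the start in 37.4 and 33.8% of the PANDORA-seq reads and 19.97 and 15.1% of the traditional reads, against 4.82% of the neighbouring pairs in the molecule, with 22.0% in the lowest PANDORA-seq control library. The pair TC spanned the end in 36.2 and 33.7% against 18.6 and 14.3%, with 5.09% in the molecule. Each distinct sequence was also counted once. Variants of a fragment with a mismatch were then separate sequences, so abundance and depth could still affect these shares. Counted so, 6 end-base shares were called between methods in both exposures (adjusted p = 0.0423, exact permutation tests). Among them, C as first base went from 22.2% in traditional control to 9.63% in PANDORA-seq control, and T as first base from 30.2 to 44.6%.

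18S fragments were longer in PANDORA-seq. Their mean length was 34.1, 32.3, 32.02 and 33.6 nt in the PANDORA-seq control libraries and 33.3, 35.1, 31.6, 33.5 and 34.7 nt in DCHP, and 25.8, 26.5, 28.6, 29.1 and 29.2 nt and 28.2, 28.0, 25.2, 30.5 and 25.4 nt in traditional RNA-seq. The methods did not overlap, and the means differed by 5.16 nt in control and 6.18 nt in DCHP (exact permutation p = 0.00794, adjusted p = 0.0254 over 16 tests). The other reads of the same libraries averaged 32.2 and 33.0 nt in PANDORA-seq and 29.5 and 29.6 nt in traditional RNA-seq. Fragments of 15 to 24 nt made up 11.1 ± 1.63% and 10.8 ± 0.824% in PANDORA-seq and 36.3 ± 8.99% and 41.6 ± 8.92% in traditional RNA-seq (adjusted p = 0.0254 in both exposures, exact permutation tests). Fragments of 35 to 45 nt went the other way, with 44.8 and 49.4% against 22.6 and 25.3% (adjusted p = 0.0254 in control and 0.0423 in DCHP, exact permutation tests). Traditional DCHP replicate 4 had the longest fragments of its group, and 42.1% of them were of 35 to 45 nt against 14.002 to 27.03% in the other 4.

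The middle class of 25 to 34 nt, which holds the leading fragment, gave no call (44.1 and 39.8% against 41.2 and 33.1%). Without the sequences that overlap the leading fragment, the difference of PANDORA-seq from traditional RNA-seq was −5.50 percentage points in control and −3.78 in DCHP, again without a call. Reads of 30 nt, the length of the leading fragment, made up 23.8 and 20.2% against 10.5 and 6.45%, those of 35 nt 8.23 and 7.34% against 3.28 and 3.27%, and those of 17 nt 0.552 and 0.560% against 4.78 and 7.31%. Paired by number, the length differences between methods kept their size and sign and gave an adjusted p of 0.333, since 5 pairs cannot give an exact p under 0.0625. With any 1 traditional control library left out, the 3 control calls had an adjusted p of up to 0.0762. In DCHP, the mean length call was lost without PANDORA-seq DCHP replicate 1, 2, 4 or 5 (highest adjusted p 0.0508), and the 35 to 45 nt call without any 1 DCHP library other than traditional replicate 4 or PANDORA-seq replicate 3 (highest adjusted p 0.106). Between DCHP and control no length measure was called in either method. The 25 to 34 nt share came nearest in traditional RNA-seq, with a DCHP difference of −8.10 percentage points (exact permutation p = 0.0635, adjusted p = 0.145), and it passed only without traditional control replicate 1 (−10.4 points, adjusted p = 0.0363). The DCHP difference in mean length in traditional RNA-seq, −0.385 nt, turned sign without DCHP replicate 3 (0.171 nt) or 5 (0.138 nt).

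**Figure D4:**
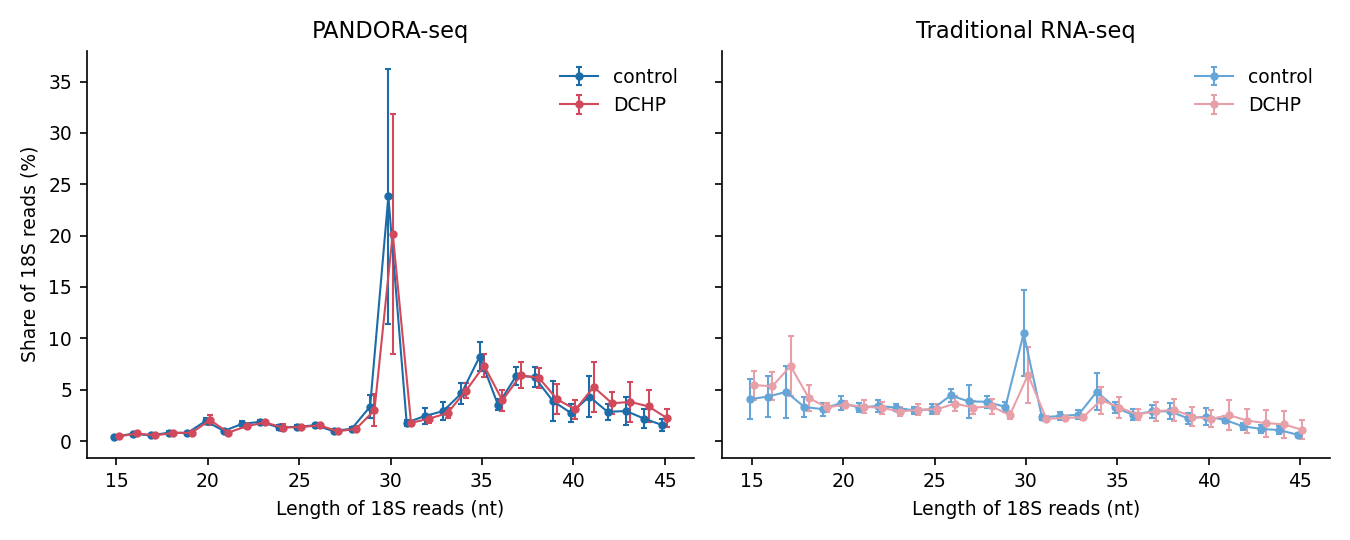
Length distribution of the 18S reads (% of 18S reads at each length from 15 to 45 nt) for PANDORA-seq and traditional RNA-seq, with group mean ± SD for control and DCHP. The 30-nt peak reaches 23.8% in PANDORA-seq control and 10.5% in traditional control, and lengths near 17 nt are raised only in traditional RNA-seq.

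Of the tested single sequences of the 18S rRNA, nearly all were higher per miRNA read in PANDORA-seq. The 20000 sequences of a comparison were the most abundant per miRNA read, which favours those abundant in PANDORA-seq. In control, 4266 of 4426 tested 18S sequences were called between methods (edgeR, adjusted p under 0.1 and over 2-fold), against 93% of all 20000 sequences. Of them, 4126 were higher in PANDORA-seq (77.5% among all sequences) and 140 lower (15.5% among all). In DCHP, 4334 of 4445 were called, against 94.5% of all, with 4213 higher (81.2% among all) and 121 lower (13.3% among all). Without the limit to 20000, the calls were 10047 higher and 1063 lower of 12622 18S sequences in control and 9896 higher and 973 lower of 11882 in DCHP, while over all sequences the share of calls higher in PANDORA-seq went from 83.4 to 57.9% in control and from 85.9 to 63.1% in DCHP. The directions also depend on the scaling. Of the 18S calls, 96.7 and 97.2% were higher in PANDORA-seq per miRNA read, 80.4 and 81.5% per total read and 76.0 and 82.1% after TMM normalization, and of the calls over all sequences 83.4 and 85.9%, 50.2 and 52.8%, and 54.8 and 61.7%. Per total read the 20000 sequences were also chosen anew, while TMM kept the set chosen per miRNA read. The median log2 fold change of all sequences was 4.76 and 5.35 per miRNA read, 0.15 and 0.59 per total read and 0.44 and 1.03 with TMM. That of the 18S sequences was 5.75 and 6.25 per miRNA read, 2.83 and 3.35 per total read and 1.40 and 1.90 with TMM. The 18S sequences thus lay above the median of all sequences on each scale.

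The 18S sequences called lower in PANDORA-seq per miRNA read, 140 in control and 121 in DCHP, were short. Their median length was 20 nt in both exposures, against 34 nt in control and 35 nt in DCHP for those higher, and 65.7 and 66.1% of them were under 25 nt. C was the first base of 39.3 and 40.5% of the lower and 7.34 and 8.17% of the higher sequences.

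DCHP gave no call for any 18S sequence by edgeR. In PANDORA-seq 0 of 4960 tested 18S sequences were called, against 0.01% of all sequences, with 233 at an unadjusted p under 0.05 (1318 of all 20000). In traditional RNA-seq 0 of 2328 were called, against 0% of all, with 65 at an unadjusted p under 0.05 (723 of all 20000). DESeq2 called 5 of the same sequences in PANDORA-seq (0.101%, with 90 of all 20000 called) and 20 in traditional RNA-seq (0.859%, with 145 of all 20000 called). In traditional RNA-seq 19 of the 20 were lower in DCHP, as were 127 of the 145, and in PANDORA-seq 4 of the 5 were lower, as were 15 of the 90. The 11 named exact fragments had adjusted p-values of at least 0.704 by edgeR wherever they were tested, which 546–562 was not in PANDORA-seq. Among them 1384–1412 was called by DESeq2 in traditional RNA-seq (log2 fold change −1.60, adjusted p = 0.0172). It stood at 0.199, 0.196, 0.0981, 0.178 and 0.184% of the 18S reads in control and 0.0655, 0.0354, 0.0888, 0.114 and 0.0505% in DCHP. It overlapped between the exposures through control replicate 3, the lowest of its group.

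At several positions the reads differed from the annotated transcript. The 5 positions with the highest share of another base were T1051G (99.9% of covering reads in PANDORA-seq against 99.7% in traditional RNA-seq), C180G (99.8 and 99.5%), A1106G (99.8 and 99.1%), T1758C (99.8 and 99.3%) and C1666T (99.2 and 98.6%), where the first base is that of the transcript. The same held at A1083G (96.8 and 97.1%). At T1074C, which few reads covered (44 to 127 per PANDORA-seq library and 71 to 1228 per traditional library), it was 61.7 and 91.9%. At G334C it held for 98.6% of the reads in PANDORA-seq and for 50.2 to 94.5% of them in the traditional libraries. With 1 mismatch allowed, a fragment that covers 1 of these positions has no mismatch to spare. A read that carries the other base at more than 1 of them was not counted. The counts and shares at T1074C, near 1051 and 1083, depend on this limit. Recomputed against the transcript with the bases that most reads carry, 8 positions in all, the level, length, bin and end-base calls between methods and exposures stayed on the same side of their thresholds. Without any mismatch allowed, positions 1001–1050 fell to 0.595% of the bases in PANDORA-seq DCHP and 1.01% in traditional DCHP. Reads with G at 1051, the leading fragment among them, are then not counted.

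A known modified site was also looked up. The loop of helix 31 holds, as background, a hypermodified uridine that makes reverse transcriptase stop or misread, and it lies at position 1255 of the transcript. Reads over it were few, at 3428 to 4830 in PANDORA-seq and 54 to 533 in traditional RNA-seq, which is 0.0302 to 0.0701% and 0.00674 to 0.0518% of the 18S reads. Of these reads, T1255C was carried by a mean of 8.05% in PANDORA-seq against 14.6% in traditional RNA-seq, with wide overlap, from 1.74 to 13.8% and from 5.49 to 22.9%. No test was made on this position.

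The small RNA genes whose level went most like that of the 18S rRNA over the 19 libraries were Mir6240 (r = 0.975 of log2(RPM + 1), among 344 genes with a mean of at least 10 RPM) and the 5S rRNA copies n-R5s185, n-R5s194, n-R5s2 and Gm23647 (r = 0.957). Both values include the gap between the methods. For the 5S copies the likeness rests on it, and for Mir6240 r was lower within each method. Mir6240 is an annotated hairpin, so its reads (mean 3256 RPM) are also part of the miRNA total. Within the PANDORA-seq libraries r was 0.551 for Mir6240 and near −0.31 for the 5S copies, and within the traditional libraries 0.539 and −0.18 to −0.24. Near-identical 5S copies share reads and count as 1 observation.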

How the data were processed

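The deposited files hold, per library, each distinct read sequence after adapter trimming with its count, which are raw counts that the authors did not normalize in these files. Per the study's methods, libraries came from the NEBNext small RNA kit, were sequenced single-end, and were annotated with SPORTS with 1 mismatch allowed and levels divided by the miRNA total. The build per the labels is mm10 (GRCm38). In the labels all 19 libraries carry DCHP as treatment, so control and DCHP were taken from the titles. The labels give T4PNK before AlkB and the methods the reverse.

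Reads of 15 to 45 nt, the range in the files, were placed on the annotated 18S transcript with at most 1 mismatch. The miRNA total is the count of reads that match an annotated hairpin, and 4 hairpins that hold a tRNA locus were left out. Two-sided exact permutation tests compared group means of the level (4 tests), length (16), 50-nt bins (148) and end bases (64), with Benjamini-Hochberg adjustment within each family and a threshold of 0.05. Single sequences were tested with edgeR 4.0.16 (R 4.3.3) by the quasi-likelihood method, with the miRNA total as library size, on the 20000 most abundant sequences of each comparison. A call needed an adjusted p under 0.1 and a fold over 2, and DESeq2 1.42.0 was the alternative. Both steps were checked on simulated data. For 200 of 20000 sequences changed 8-fold, edgeR recovered 99 and 85% in the exposure comparisons (PANDORA-seq, traditional) and 67 and 80% in the method comparisons (control, DCHP). With 15 of 37 bins changed by 6 SD between methods, the permutation tests recovered 99.5%. With 5 bins changed they recovered 0%, because a call needs 24 tests at the smallest p. The simulated sequences were drawn independently with a common dispersion for all sequences of a comparison, so the edgeR values hold for that setting only. The simulated bins were independent and of equal spread, unlike the bin shares of these data. These recovery values therefore do not give the power here, for sequences or for bins.

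Same-numbered libraries deviated together in all 5 DCHP pairs of the methods (r of deviations 0.21 to 0.48 over 4350 18S sequences). Here an r over 0.1 counted as deviating together. By this rule they did so more weakly in 3 of 4 control pairs (r 0.12 to 0.19), with −0.155 for replicate 3. In the exposure comparisons they did so in 1 of 4 pairs (PANDORA-seq) and 1 of 5 (traditional). Whether same-numbered libraries came from the same RNA was not tested. A blocked alternative paired them by number in all 4 comparisons. The groups were compared as separate samples in the results, since the study's methods use no block.

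Named fragments were the 6 most abundant exact sequences of each method that do not share more than 50% of their positions, and named sites and bins were the most abundant or most different ones. The members and lists were chosen with earlier results of these data known. Alternatives covered the matching, the length range, the bins, the denominator, the normalization, the pairing and each library left out. The T1051G sequence, and the alternatives without it or with the bases most reads carry, were chosen after seeing the data.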

Additional observations from a re-analysis of the deposited data

Results flagged for a closer look

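In 11 of 88 groups of 4 or 5 libraries, 1 library lay far from the others by Dixon's test. All 11 are shares of a named exact fragment in the 18S reads. The test gives this in about 1 in 20 groups of independent, normally distributed values. These fragments were named by their mean share in the same libraries, so 1 high library can both name a fragment and stand apart in it. The 1 in 20 is thus no measure of chance for these groups.

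Traditional DCHP replicate 4 held 0.866% of 685–727 (group median 0.0420%), 0.815% of 1516–1556 (median 0.0453%) and 0.376% of 1347–1382 (median 0.0299%). It also had the longest 18S fragments of its group, at 30.5 nt on average. Replicate 2 of the same group held 1.69% of 1540–1574 (median 0.419%). Traditional DCHP replicate 5 held 5.49% of 900–916 (median 0.0849%), and PANDORA-seq DCHP replicate 5 held 0.0130% of it (median 3.53e-05%), so that the same fragment was raised in both libraries of this number.

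The 17-nt fragment 546–562 was high in traditional control replicate 1 (1.30%, median 0.122%), PANDORA-seq control replicate 1 (0.00118%, median 0.000312%) and PANDORA-seq DCHP replicate 2 (0.00176%, median 0.000514%). Traditional control replicate 5 held 1.88% of 136–163 (median 0.748%), and traditional control replicate 3 was low in 1384–1412, at 0.0981% (median 0.184%).

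Reads outside the comparisons were also found. On the strand opposite to the rRNA there was a median of 11 reads in the PANDORA-seq libraries (4 to 16) and 105 in the traditional libraries (65 to 158), although the traditional libraries held fewer 18S reads. Reads that run past the last base of the transcript numbered a median of 195 in PANDORA-seq (110 to 469) and 45 in traditional RNA-seq (26 to 80). Per 1000000 18S reads the medians were 28.9 and 19.6 in PANDORA-seq control and DCHP, against 35.46 and 33.996 in the traditional groups. All were above the 3 reads that a count of 0 allows.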

How the results depend on the processing

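The method differences in level, mean length, the 15 to 24 nt share and the 35 to 45 nt share kept their direction under all alternatives run. With same-numbered libraries as pairs (replicate block) the smallest possible p is 0.125 for 4 pairs and 0.0625 for 5, and these calls were lost: the level differed by 18.6 and 19.1 reads per miRNA read, the mean length by 5.50 and 6.18 nt, and 0 and 0 bins were called in control and DCHP. With the block, edgeR called 4328 of 4518 and 4355 of 4445 18S sequences between methods, and 18300 and 19003 of all 20000. With bins shifted by 25 nt, 0 and 0 bins were called. The PANDORA-seq exposure difference in level turned to −9624 RPM (p = 0.706, exact permutation) and −12.4 reads per read of the narrower miRNA total (p = 0.968, exact permutation). The method difference in the 25 to 34 nt share turned with exact matches (−4.80 and −3.05 points in control and DCHP), with each distinct sequence once (−1.44 and −0.983) and without the leading fragment's overlaps (−5.50 and −3.78), never with a call. With exact matches the DCHP method difference was −0.414 points for positions 1001–1050 and −0.0482 for 1051–1100. Reads with G at 1051, the leading fragment among them, are then not counted. Each distinct sequence once gave 6 and 6 end-base calls between methods. DESeq2 called 5 and 20 18S sequences for exposure, with 90 and 145 called of all 20000. Without the limit to 20000 sequences edgeR called 11110 of 12622 and 10869 of 11882 18S sequences between methods, and 77158 of 89738 and 73019 of 80608 of all.

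Leaving out 1 library at a time gave these ranges. The level difference lay between −1.20 and 2.81 (PANDORA-seq exposure), −0.182 and −0.0223 (traditional exposure), 16.2 and 20.3 (control methods) and 18.1 and 20.04 (DCHP methods). The mean length difference lay between 0.277 and 1.14 nt, −1.14 and 0.171 nt, 4.65 and 5.50 nt, and 5.63 and 6.94 nt in the same order. The exposure difference in the 15 to 24 nt share of PANDORA-seq lay between −0.946 and 0.371 points, that in the 35 to 45 nt share of traditional RNA-seq between −1.45 (without DCHP replicate 4) and 5.56, and the control method difference in the 25 to 34 nt share between −0.202 and 7.52. Bins called numbered 0 to 0 in control methods, 0 to 14 in DCHP methods, 0 to 0 in PANDORA-seq exposure and 0 to 1 in traditional exposure, the 1 without control replicate 5. 18S sequences called numbered 4016 to 4403 and 4197 to 4444 between methods and 0 to 0 for exposure, and end-base calls 0 to 0.

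Depth limits the values over position 1255, where some libraries held as few as 54 reads, and at the 3′ end. The counts over position 1074, as few as 44 reads, also depend on the mismatch limit. Reads with C there and G at 1051 or 1083 have more than 1 mismatch and were not counted. The p-values measure the spread between 4 or 5 libraries.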

Other observations

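Positions other than the named ones also differed in the bases that reads carried, and these were chosen after their values were seen. C1590T was carried by 0.785% of the covering reads in PANDORA-seq against 37.9% in traditional RNA-seq, C331T by 0.351 and 7.07%, and C1677T by 0.161 and 6.72%. At G208C the shares were 19.1 and 43.0%. Each position was covered by at least 173 reads in every library.

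Reads that match the 18S rRNA over part of their length and then depart from it were 0.536 to 0.975% as many as the 18S reads in PANDORA-seq and 1.65 to 3.26% in traditional RNA-seq. The most common departure was after position 1747, with 8.25% of the departing reads.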
